A study of Mus musculus with 29 samples.

Results

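Genes that mark astrocytes were followed across 29 expression arrays, 18 of mouse prefrontal cortex and 11 of caudate-putamen. The set comprised 8 genes, Gfap, Slc1a2, Slc1a3, Aqp4, Vcam1, Acsbg1, Agt and Aldoc, of 12393 genes on the array. They were taken by their symbol in the platform annotation, from a list chosen with earlier results of these data known. The 8 genes are reported by 15 of the 22626 transcripts tested (a transcript here is what 1 probe set of the array reads). Each gene was read from its brightest probe set over all arrays. Other probe sets of a gene are given beside the results where they differ in sign or call from the brightest one, except in prefrontal tests of 1 strain, where they are given for Gfap and Slc1a3.

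The mice were of 3 strains on 1 genetic background: FVB/N, the parent strain; TgS, transgenic for the human acetylcholinesterase variant AChE-S; and TgR, transgenic for the variant AChE-R. The sources used here do not name the promoter of the transgenes. MPTP, whose metabolite kills dopamine neurons, was injected 4 times at intervals of 2 h, with 20 mg/kg each time and 80 mg/kg in total, and the regions were dissected 4 days later. The protocol counts 6 saline and 6 MPTP mice in each strain, 36 in all. The labels call the unexposed arrays naive. They do not say whether these are the saline mice, how many mice an array holds or whether replicates are separate animals. The p-values therefore measure the spread between arrays, which may be technical. In the caudate-putamen each strain had 2 naive arrays, FVB/N and TgS had 2 MPTP arrays and TgR had 1. The prefrontal cortex had, for each strain, 4 naive and 2 MPTP arrays.

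Astrocytes take up released glutamate, buffer water and ions at their endfeet on blood vessels, and feed neighbouring neurons. After injury they become reactive, which is classically read from a rise of the intermediate filament protein GFAP. Loss of dopamine terminals in the striatum after MPTP is a standard setting for that response. The 8 genes cover the cytoskeleton (Gfap), glutamate uptake (Slc1a2, which encodes GLT-1, and Slc1a3, which encodes GLAST), the endfoot water channel (Aqp4), cell adhesion (Vcam1), fatty acid and sugar metabolism (Acsbg1 and Aldoc) and a secreted hormone precursor (Agt, angiotensinogen).

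STAT3 is a textbook regulator of Gfap and of reactive astrocytes, so the promoter windows of the members were searched for the STAT motif TTCNNNGAA, a palindrome that reads the same on both strands. RefSeq windows (GRCm38.p6, 250 bases before to 50 after each start) were held for 6 members in 7 windows. The motif was in 5 of the 7 windows, 1 for each of 5 genes, and in 8.3% of the 32851 windows of all genes. The 6 matches are printed because they belong to genes whose levels moved differently. The motif is in capitals with 10 bases on each side, 5′ to 3′ on the strand of the gene.
Gfap, chr11:102897184-102897212, minus strand: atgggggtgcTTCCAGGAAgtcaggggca
Slc1a3, chr15:8710885-8710913, minus strand: ttcaggatccTTCCAAGAAatttcagtta
Acsbg1, chr9:54661893-54661921, minus strand: gaaggctggcTTCATTGAAattctcctca
Agt, chr8:124569860-124569888, minus strand: ccagtagggcTTCCTGGAAggggcccaga
Aldoc, chr11:78324064-78324092, plus strand: aggggccagaTTCAGTGAAagaagagctg
Aldoc, chr11:78324105-78324133, plus strand: tggcagcagtTTCCAGGAAgacctgtggc
The Gfap match spans the annotated start, and the Agt match begins at position -172 from it. The 2 Aldoc matches lie in the window of 1 of its 2 starts and overlap neither each other nor the start. The Slc1a2 window held no match. A match is a description of letters, not evidence of binding.

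The naive prefrontal arrays fell into 2 sets. Replicates 1 and 2 of every strain read low for the Y-linked gene Eif2s3y (log2 signal 3.42 to 3.83, against 8.41 or more on all other arrays) and high for Xist (8.62 to 10.61). In replicates 3 and 4 Xist read 6.91 to 7.24. The Y-linked gene Kdm5d read 3.58 to 4.32 in replicates 1 and 2 and 7.29 to 7.65 in replicates 3 and 4. The sources used here give no sex. Every comparison of replicates 1 and 2 with other arrays also crosses this difference in sex-linked genes. Replicates 3 and 4 resembled the MPTP and caudate-putamen arrays in these genes, and carry a source label spelled differently from the other prefrontal arrays. The spiked hybridisation control bioB was high in replicates 1 and 2 (7.43 to 8.06) and in the MPTP prefrontal arrays (7.48 to 7.90), and lower in replicates 3 and 4 (6.71 to 7.22). In the caudate-putamen bioB was also lower, at 6.76 to 7.03 on naive and 6.54 to 7.21 on MPTP arrays. Comparisons of arrays with high and low bioB, between regions or within the prefrontal cortex, also cross this difference. Its part in the results was not tested. Of all transcripts, 53.7% differed between the 2 naive sets, so every comparison with naive prefrontal cortex is given against each set. The free-text description of FVB/N naive caudate-putamen replicate 2 names MPTP, while its title and treatment label say naive. It was kept as naive, and the values without it are given where they matter. TgR naive prefrontal replicate 2 had the lowest ratio of 5′ to 3′ actin signal (log2 -2.30, other arrays -1.41 to -0.62).

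All 8 members were above the 0.25 quantile of transcript means (6.02 log2). The mean of 37 other astrocyte markers ranged only from 9.95 to 10.32 over the 29 arrays. Other genes that define astrocytes lay between 9.50 and 10.02 (Aldh1l1), 11.53 and 12.26 (Gja1), 12.33 and 12.74 (Glul) and 10.82 and 11.79 (S100b). No detection calls were part of the table, so the background signal is unknown, these values are no test of the label, and levels were not compared between genes. In bulk tissue, fewer astrocytes and less RNA per astrocyte cannot be told apart.

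MPTP was followed by a rise of Slc1a2 and a fall of Aqp4 in the caudate-putamen, averaged over the 3 strains (log2 difference 0.40 ± 0.06 and -0.41 ± 0.07, ± standard error from the limma fit of all arrays). These were the 2 of 8 members called there at adjusted p under 0.05 (Benjamini-Hochberg over all transcripts), where 1.43% of all transcripts were called. The count was 5 of 8 with the caudate-putamen fitted alone (2.71% of all), 5 without naive prefrontal replicates 1 and 2 (4.54%) and 4 without replicates 3 and 4 (2.73%). In the prefrontal cortex Aqp4 was lower and Aldoc higher after MPTP against both naive sets. Against naive replicates 3 and 4, 5 of 8 were called with 38.8% of all transcripts, and against replicates 1 and 2, 4 of 8 with 60.9%. The first prefrontal count of members is above the share of all transcripts and the second is below it. The median log2 difference of the 8 members after MPTP was 0.00 in the caudate-putamen, where that of all transcripts was 0.01. The 2 prefrontal comparisons share the 6 MPTP arrays.

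**Figure D1:**
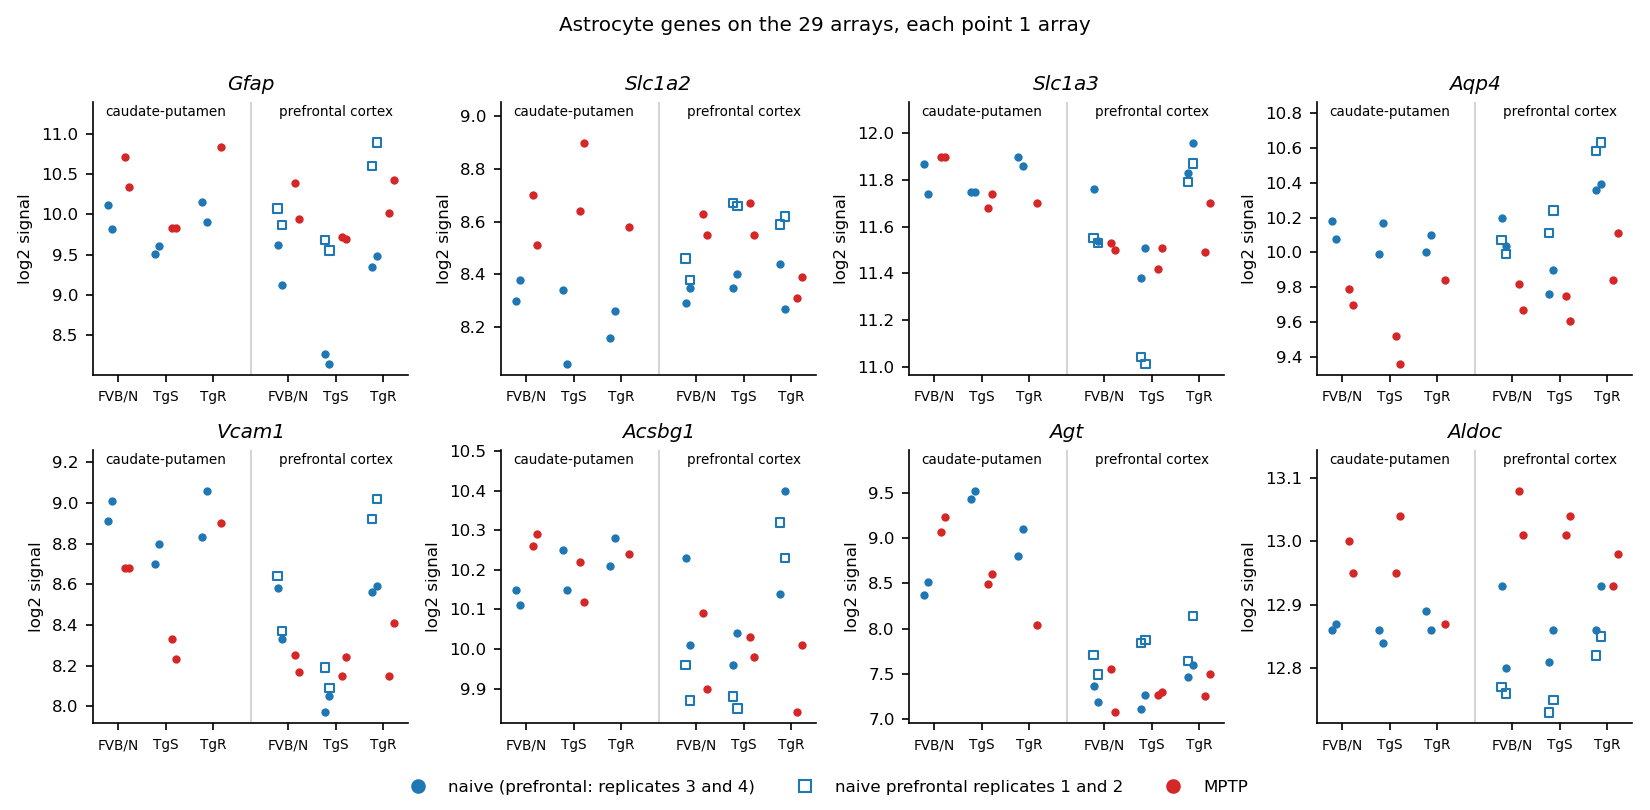
Log2 signal (y axis) of the 8 astrocyte genes on each of the 29 arrays, by strain and region (x axis), with naive arrays in blue, MPTP arrays in red, and open squares for naive prefrontal replicates 1 and 2. Aqp4 lies lower on all 5 MPTP caudate-putamen arrays (9.36 to 9.84) than on all 6 naive ones (9.99 to 10.18), and naive prefrontal Gfap spreads from 8.14 to 10.89.

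Gfap, the intermediate filament gene that defines reactive astrocytes, had the widest range of the 8 genes in naive prefrontal cortex by their brightest probe sets. A dimmer probe set of Slc1a3 (7.25 to 11) and that of Aqp4 (5.73 to 9.13) ranged more widely there. In the naive caudate-putamen Gfap read 10.12 and 9.82 for FVB/N, 9.51 and 9.61 for TgS mice and 10.15 and 9.91 for TgR mice. After MPTP the caudate-putamen arrays read 10.71 and 10.34 for FVB/N, 9.83 and 9.83 for TgS mice and 10.84 for TgR mice. Within each strain every MPTP array was above every naive array, while over the 3 strains the groups overlapped.

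The mean rise of Gfap in the caudate-putamen was 0.55 ± 0.14 on the log2 scale, or 1.46-fold, and was not called in the fit of all arrays (adjusted p = 0.0602). It was called when the caudate-putamen was fitted alone (adjusted p = 0.0146), without naive prefrontal replicates 1 and 2 (0.0102) and without replicates 3 and 4 (0.0114). The other Gfap probe set rose by 0.56 ± 0.12 and was called in the fit of all arrays (adjusted p = 0.0192). Without FVB/N naive replicate 2, whose description disagrees with its label, the difference was 0.50 (adjusted p = 0.179).

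Prefrontal Gfap depended on the naive set. Naive replicates 3 and 4 read 9.62 and 9.12 for FVB/N, 8.27 and 8.14 for TgS mice and 9.35 and 9.48 for TgR mice. Naive replicates 1 and 2 read 10.07 and 9.87 for FVB/N, 9.68 and 9.55 for TgS mice and 10.60 and 10.89 for TgR mice. The MPTP arrays read 10.39 and 9.94 for FVB/N, 9.72 and 9.69 for TgS mice and 10.02 and 10.42 for TgR mice. All 6 MPTP arrays were above all 6 of replicates 3 and 4, and they overlapped replicates 1 and 2.

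Against replicates 3 and 4 Gfap was 2.05-fold higher after MPTP (log2 1.03 ± 0.13, adjusted p = 5.67e-06), and it was called in each strain in the fit of all arrays, by 1.05 in FVB/N (10.3% of all transcripts called), 1.35 in TgS (28.5%) and 0.70 in TgR (19.7%). These values for 1 strain use a difference between the naive sets that the fit shares over the 3 strains, so they are not plain differences between the arrays printed above. The TgR call was lost with the prefrontal cortex fitted alone (0.70, adjusted p = 0.0505; 14.2% of all called). Against replicates 1 and 2 the difference was -0.08 ± 0.13 (95% interval -0.35 to 0.19, adjusted p = 0.607), with no strain called for Gfap in the fit of all arrays (25.5% of all transcripts called in FVB/N, 40.6% in TgS and 43.7% in TgR). Both TgR MPTP arrays were below both TgR arrays of replicates 1 and 2. The TgR difference was -0.42 ± 0.21 with all arrays, and without replicates 3 and 4 it was -0.53 ± 0.17 and called (adjusted p = 0.0162; 54.2% of all). The 2 naive sets themselves differed in Gfap by 1.11 ± 0.13. The other Gfap probe set gave 1.13 ± 0.11 against replicates 3 and 4 and -0.34 ± 0.11 against replicates 1 and 2, and both were called. Against replicates 1 and 2 it was also called within FVB/N (-0.49 ± 0.18, adjusted p = 0.0471) and TgR (-0.73 ± 0.18, adjusted p = 0.00306). Markers of other cells moved with the naive sets: the mean of 21 endothelial and mural markers was 7.83 to 8.49 in replicates 3 and 4, 8.48 to 8.68 in replicates 1 and 2 and 8.47 to 8.71 after MPTP. The mean of 16 meningeal and fibroblast markers was 7.12 to 7.61, 7.89 to 8.20 and 7.54 to 7.92 in the same order. Their part in the Gfap result was not tested.

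Slc1a2 encodes GLT-1, the main glutamate transporter of the forebrain, and is read by 1 probe set. In the caudate-putamen its naive arrays read 8.30 and 8.38 for FVB/N, 8.34 and 8.06 for TgS mice and 8.16 and 8.26 for TgR mice. Its MPTP arrays read 8.70 and 8.51 for FVB/N, 8.64 and 8.90 for TgS mice and 8.58 for TgR mice. All 5 MPTP arrays were above all 6 naive arrays.

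The mean rise of Slc1a2 in the caudate-putamen was 1.32-fold (log2 0.40 ± 0.06, adjusted p = 0.00197), and 0.42 without FVB/N naive replicate 2. It was called within TgS (0.57 ± 0.10, adjusted p = 0.0053), but not without TgS naive replicate 2 (0.43, adjusted p = 0.0667) or without TgS MPTP replicate 2 (0.44, adjusted p = 0.196). The differences in FVB/N (0.27 ± 0.10) and TgR (0.37 ± 0.12) were not called. Its prefrontal signal ranged from 8.31 to 8.67 after MPTP, 8.27 to 8.44 in naive replicates 3 and 4 and 8.38 to 8.67 in replicates 1 and 2. The prefrontal difference was 0.17 ± 0.06 against replicates 3 and 4 (adjusted p = 0.0272) and -0.05 ± 0.06 against replicates 1 and 2 (adjusted p = 0.494). The former lost its call without any 1 of 5 arrays: FVB/N MPTP replicate 1, TgR MPTP replicate 2, TgS MPTP replicate 1, TgS naive replicate 3 or TgR naive replicate 4.

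Slc1a3 encodes GLAST, the glutamate transporter that dominates in cerebellum and radial glia and is shared by most astrocytes. Its caudate-putamen signal ranged from 11.74 to 11.90 naive and 11.68 to 11.90 after MPTP, and the groups overlapped (log2 difference -0.04 ± 0.06, adjusted p = 0.879). Its prefrontal MPTP difference was -0.14 ± 0.06 against replicates 3 and 4 and 0.06 ± 0.06 against replicates 1 and 2, with neither called. A dimmer Slc1a3 probe set was called higher against replicates 1 and 2 (1.30 ± 0.30, adjusted p = 0.001). The brightest probe set was called within TgR against replicates 3 and 4 (-0.37 ± 0.09, adjusted p = 0.00926), where the other 2 gave 0.08 ± 0.30 and 0.39 ± 0.47, not called. It was also called within TgS against replicates 1 and 2 (0.33 ± 0.09, adjusted p = 0.00829; 40.6% of all transcripts called), where the other 2 gave -0.12 ± 0.30 and 0.92 ± 0.47, not called. One of these read 11.26 and 11.28 on the naive TgS arrays and 10.64 and 10.74 after MPTP, which is lower. Within TgR, 1 of the dimmer probe sets was called higher against replicates 1 and 2 (1.79 ± 0.47, adjusted p = 0.00537), so no direction within a strain holds for the gene. Tests of whether the MPTP response differed between strains called no member in the prefrontal cortex.

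**Figure D2:**
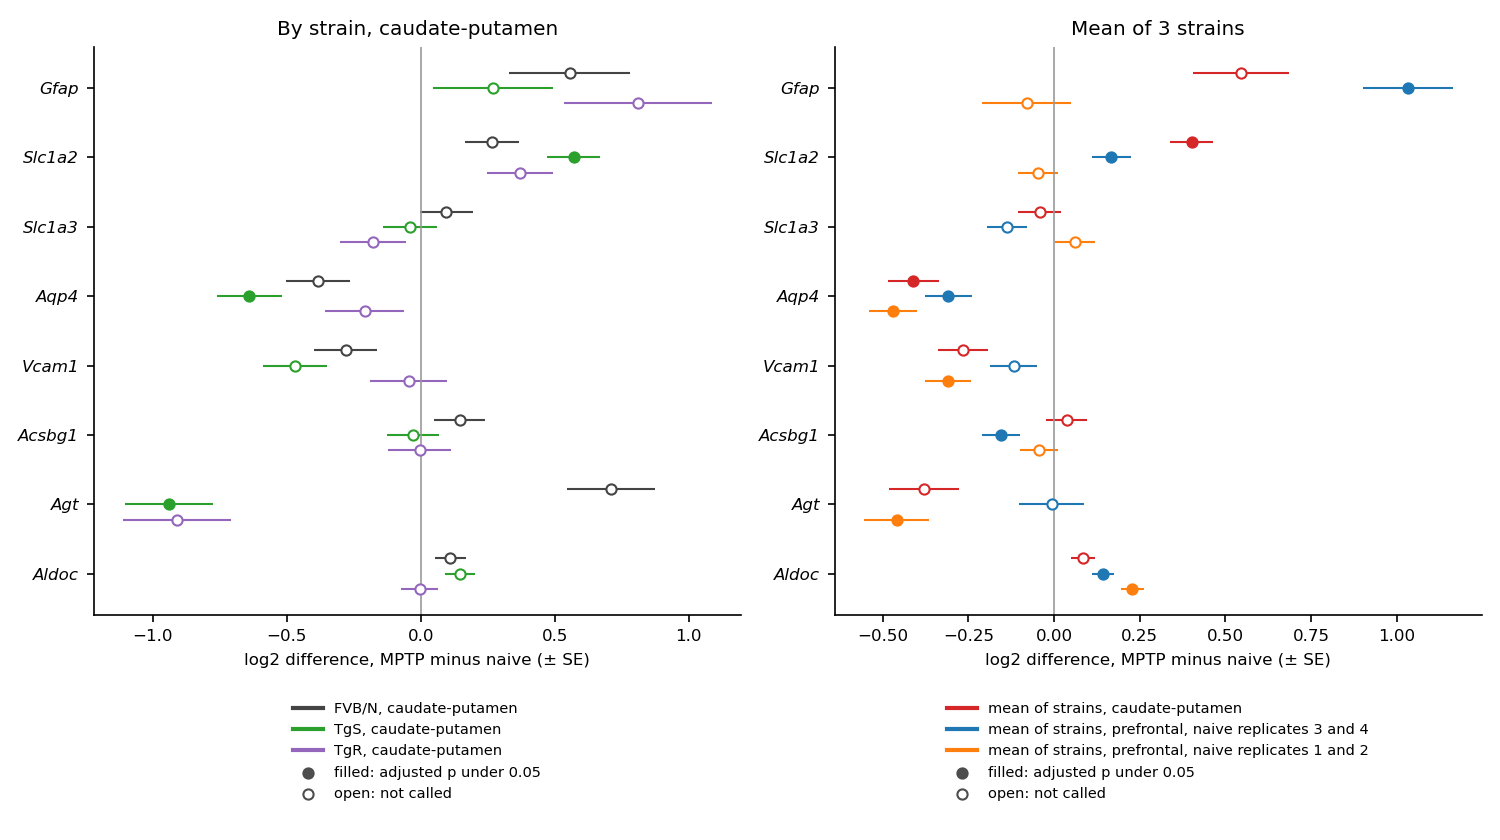
Log2 difference, MPTP minus naive (x axis, ± SE), of each astrocyte gene (y axis) in the caudate-putamen by strain (left) and for the mean of the 3 strains in both regions (right), with filled points where adjusted p was under 0.05. Aqp4 lies below 0 in all 6 comparisons shown, and Gfap shifts from 1.03 to -0.08 in the prefrontal cortex with the choice of naive arrays.

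Aqp4 encodes aquaporin-4, the water channel of the perivascular endfeet. In the caudate-putamen its naive arrays read 10.18 and 10.08 for FVB/N, 9.99 and 10.17 for TgS mice and 10 and 10.10 for TgR mice. After MPTP they read 9.79 and 9.70 for FVB/N, 9.52 and 9.36 for TgS mice and 9.84 for TgR mice. All 5 MPTP arrays were below all 6 naive arrays.

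The mean fall of Aqp4 in the caudate-putamen was 1.33-fold (log2 -0.41 ± 0.07, adjusted p = 0.00601), and -0.43 without FVB/N naive replicate 2 (adjusted p = 0.0152). Within TgS it was -0.64 ± 0.12 (adjusted p = 0.00782), a call lost without TgS naive replicate 2 (-0.55, adjusted p = 0.0718) or TgS MPTP replicate 2 (-0.56, adjusted p = 0.2). The differences of -0.39 ± 0.12 in FVB/N and -0.21 ± 0.15 in TgR were not called.

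Prefrontal MPTP arrays of Aqp4 read 9.82 and 9.67 for FVB/N, 9.75 and 9.61 for TgS mice and 9.84 and 10.11 for TgR mice. The naive arrays, replicates 1 to 4, read 10.07, 9.99, 10.20 and 10.04 for FVB/N, 10.11, 10.24, 9.76 and 9.90 for TgS mice and 10.58, 10.63, 10.36 and 10.39 for TgR mice. Within each strain both MPTP arrays were below all 4 naive arrays. The difference was -0.31 ± 0.07 against replicates 3 and 4 (adjusted p = 0.00151) and -0.47 ± 0.07 against replicates 1 and 2 (adjusted p = 1.51e-05). The response of the caudate-putamen and that of the prefrontal cortex differed by -0.10 ± 0.10 against replicates 3 and 4 and by 0.06 ± 0.10 against replicates 1 and 2, and neither was called. The second Aqp4 probe set was dimmer and more variable: its log2 differences were -0.63 ± 0.37 in the caudate-putamen (-1.02 ± 0.59 within TgS), and -0.19 ± 0.34 and 0.39 ± 0.34 in the prefrontal cortex, with none called. With the mean of both probe sets Aqp4 differed by -0.52 in the caudate-putamen, and by -0.25 and -0.04 in the prefrontal cortex, with none called (adjusted p = 0.215, 0.288 and 0.86).

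Vcam1 encodes a vascular cell adhesion molecule that endothelial cells carry too. Its caudate-putamen arrays read 8.91 and 9.01 (FVB/N), 8.70 and 8.80 (TgS) and 8.83 and 9.06 (TgR) when naive, and 8.68 and 8.68, 8.33 and 8.23, and 8.90 after MPTP. The MPTP arrays were below the naive arrays of their strain in FVB/N and TgS, and between them in TgR. The mean difference of -0.27 ± 0.07 was not called with all arrays (adjusted p = 0.085) and was called with the caudate-putamen alone (adjusted p = 0.0373). Prefrontal Vcam1 differed by -0.12 ± 0.07 against replicates 3 and 4, not called, and by -0.31 ± 0.07 against replicates 1 and 2 (adjusted p = 0.000734). The other 2 Vcam1 probe sets went the other way against replicates 1 and 2, by 0.34 ± 0.09 and 0.17 ± 0.05, both called, so no direction holds for the gene there. Against replicates 3 and 4 the sign of 1 of these was also opposite. Its MPTP arrays read 8.21 to 8.36 and its naive replicates 3 and 4 read 8.01 to 8.50.

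Acsbg1 encodes an acyl-CoA synthetase that activates long fatty acids, and is read by 1 probe set. Its caudate-putamen signal was 10.11 to 10.28 naive and 10.12 to 10.29 after MPTP (difference 0.04 ± 0.06, adjusted p = 0.895). In the prefrontal cortex it was lower after MPTP against replicates 3 and 4 (-0.16 ± 0.06, adjusted p = 0.0325), and not called against replicates 1 and 2 (-0.04 ± 0.06, adjusted p = 0.51). The first call was lost without any 1 of 6 arrays, FVB/N MPTP replicate 2, TgR MPTP replicate 1, TgS MPTP replicate 2, FVB/N naive replicate 3, TgS naive replicate 4 or TgR naive replicate 4. Within TgR the fall was called against both sets (-0.40 ± 0.09 and -0.29 ± 0.09).

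Aldoc encodes aldolase C, the brain form of a glycolytic enzyme, and its mean signal lay at percentile 99.4 of all transcripts. Its prefrontal MPTP arrays read 13.08 and 13.01 for FVB/N, 13.01 and 13.04 for TgS mice and 12.93 and 12.98 for TgR mice. Its 12 naive arrays ranged from 12.73 to 12.93 with a median of 12.82, so that the groups met at 12.93. The rise was small, 1.10-fold against replicates 3 and 4 (log2 0.14 ± 0.03, adjusted p = 0.00174) and 1.17-fold against replicates 1 and 2 (0.23 ± 0.03, adjusted p = 1.14e-05). The dimmer Aldoc probe set rose by 0.07 ± 0.09, not called, and by 0.28 ± 0.09, called. In the caudate-putamen the naive arrays lay between 12.84 and 12.89 and the MPTP arrays between 12.87 and 13.04 (0.08 ± 0.04, adjusted p = 0.344).

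Agt encodes angiotensinogen, the precursor of the angiotensins, which astrocytes secrete in the brain. It is read by 1 probe set, and its response in the caudate-putamen differed between strains. Naive arrays read 8.37 and 8.52 for FVB/N, 9.44 and 9.53 for TgS mice and 8.80 and 9.10 for TgR mice. MPTP arrays read 9.07 and 9.24 for FVB/N, 8.49 and 8.60 for TgS mice and 8.04 for TgR mice. Agt was higher after MPTP on both FVB/N arrays and lower on both TgS arrays and the TgR array than on the naive arrays of the strain.

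The Agt difference after MPTP was 0.71 ± 0.17 in FVB/N (adjusted p = 0.0816, with 0 of 8 members and 0.265% of all transcripts called), -0.94 ± 0.17 in TgS (adjusted p = 0.0053, with 3 of 8 members and 1.41% of all called) and -0.91 ± 0.20 in TgR (adjusted p = 0.112, with 0 of 8 and 0.11%). With the caudate-putamen alone all 3 were called (adjusted p = 0.0409, 0.00653 and 0.0398). The test of the difference itself called Agt in TgS against FVB/N (-1.65 ± 0.23, adjusted p = 0.0011), where 0.601% of all transcripts were called. It also called Agt in TgR against FVB/N (-1.62 ± 0.26, adjusted p = 0.00837), where 0.181% were. No other member was called in either. Without FVB/N naive replicate 2 the 2 values were -1.73 and -1.70, both called. The TgR call was lost without FVB/N naive replicate 1 (-1.55, adjusted p = 0.0611) or FVB/N MPTP replicate 2 (-1.54, adjusted p = 0.0571), and it rests on 1 TgR MPTP array. The call of the TgS fall was lost without TgS MPTP replicate 2, which leaves 1 TgS MPTP array. The fall itself was -0.995 there, against -0.94 with all arrays.

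Naive strains differed too. Agt was 2.06-fold higher in naive TgS than in naive FVB/N caudate-putamen (log2 1.04 ± 0.17, adjusted p = 0.00153), the only member called there, with 2.19% of all transcripts. That call was lost without FVB/N naive replicate 1 (0.97, adjusted p = 0.0523). After MPTP it was lower in TgR than in FVB/N (-1.12 ± 0.20, adjusted p = 0.00783; 1.04% of all called), a call lost without FVB/N MPTP replicate 2 (-1.03, adjusted p = 0.0774).

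Genes of other cells varied on the same caudate-putamen arrays as Agt. The 3 genes most like Agt over the 29 arrays, after the mean of each region was removed, were the neuropeptide gene Gal (Pearson r = 0.88), the vesicular glutamate transporter gene Slc17a6 of diencephalic neurons (0.864) and Arhgap24 (0.863). They were picked for their correlation with Agt on arrays that include these 11, so their likeness to it here is set by that choice. Gal read 8.38 and 8.58 in naive FVB/N, 9.05 and 9.26 in naive TgS, and 8.36 and 8.79 in naive TgR. After MPTP it read 9.16 and 9.11, 7.99 and 8.14, and 7.55 in the same strain order. Slc17a6 read 8.91 and 8.94, 9.97 and 10.81, and 8.86 and 9.28 when naive, and 9.20 and 9.30, 8.82 and 8.62, and 7.52 after MPTP. The mean of 11 thalamic neuron markers ran from 7.86 to 7.87, 8.26 to 8.63 and 7.79 to 7.89 when naive, and from 7.97 to 8.16, at 7.90 on both TgS arrays, and at 7.39 after MPTP. The part of these genes in the Agt result was not tested. The mean of the choroid plexus and ependymal list also varied between caudate-putamen arrays, from 6.69 to 8.27.

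**Figure D3:**
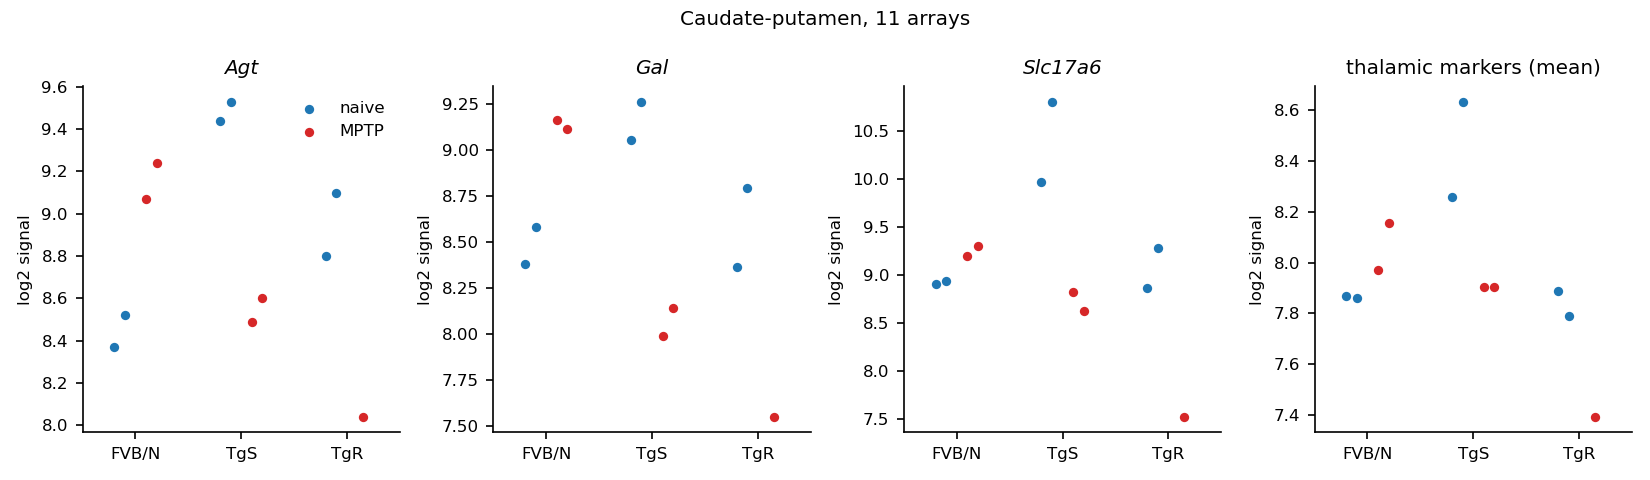
Log2 signal (y axis) of Agt, Gal, Slc17a6 and the mean of 11 thalamic neuron markers on the 11 caudate-putamen arrays, by strain (x axis), with naive arrays in blue and MPTP arrays in red. In each panel naive TgS is the highest naive strain and the TgR MPTP array is the lowest array, with Agt at 8.04.

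Of 9 measured genes of the renin-angiotensin system, 1 was called after MPTP in the caudate-putamen, where 1.43% of all transcripts were called. It was Ctsd, which encodes cathepsin D (0.20 ± 0.05, adjusted p = 0.0351). Its relation to Agt was not tested. Ace, the converting enzyme, differed by -0.19 ± 0.06 and the receptor gene Agtr2 by -0.25 ± 0.07, with neither called. No gene of this list, which leaves out Agt itself, was called in TgS or in TgR alone.

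In the prefrontal cortex Agt read 7.55 and 7.07 for FVB/N, 7.26 and 7.30 for TgS mice and 7.25 and 7.50 for TgR mice after MPTP. Naive replicates 3 and 4 ranged from 7.11 to 7.60 and naive replicates 1 and 2 from 7.49 to 8.14. The MPTP arrays overlapped both sets. The difference was -0.01 ± 0.10 against replicates 3 and 4 (adjusted p = 0.965) and -0.46 ± 0.10 against replicates 1 and 2 (adjusted p = 0.000444).

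Between regions, Agt, Vcam1 and Slc1a3 were the 3 members called lower in the prefrontal cortex than in the caudate-putamen in each of the 3 regional comparisons. Agt ranged from 7.07 to 8.14 on the 18 prefrontal arrays and from 8.04 to 9.53 on the 11 caudate-putamen arrays. The groups overlapped only between the highest prefrontal array, a naive TgR one, and the TgR MPTP caudate-putamen array. The naive difference was -1.63 ± 0.10 against replicates 3 and 4 and -1.18 ± 0.10 for replicates 1 and 2, and the MPTP difference was -1.26 ± 0.10 (adjusted p = 4.36e-11, 3.81e-09 and 6.98e-09). Of the 8 members, 4 were called in the first comparison (42.1% of all transcripts, 23.9% lower), 7 in the second (60.1%, 25.2% lower) and 5 in the third (43%, 23.2% lower). The members called lower numbered 4, 5 and 5.

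Vcam1 was lower in the prefrontal cortex by 0.54 ± 0.07, 0.35 ± 0.07 and 0.39 ± 0.07 on the log2 scale in the 3 regional comparisons, in the same order. Of its other 2 probe sets, 1 was not called in the first (-0.055 ± 0.05) and neither was in the third (-0.125 ± 0.09 and -0.06 ± 0.06). Slc1a3 was also called in all 3, at -0.15 ± 0.06, -0.35 ± 0.06 and -0.25 ± 0.06. The first Slc1a3 call was lost without any 1 of 12 of the 18 naive arrays: FVB/N prefrontal replicates 1, 2 and 4, TgS prefrontal replicate 3, TgR prefrontal replicates 1, 3 and 4, FVB/N caudate-putamen replicate 1, or any TgS or TgR caudate-putamen replicate. The other 2 Slc1a3 probe sets differed by 0.05 ± 0.19 and 0.09 ± 0.30 there and by -0.04 ± 0.20 and 0.16 ± 0.32 after MPTP, none called, and 1 of them was not called for replicates 1 and 2 (-0.38 ± 0.19). Gfap was lower in the prefrontal cortex against replicates 3 and 4 (-0.86 ± 0.13, adjusted p = 2.34e-05) and 0.26 ± 0.13 for replicates 1 and 2, not called (adjusted p = 0.0943), where its other probe set was called higher (0.50 ± 0.11, adjusted p = 0.000758). Aqp4 was called higher for replicates 1 and 2 (0.18), and its second probe set gave -0.30 ± 0.34, not called. After MPTP Gfap was -0.37 ± 0.14 (adjusted p = 0.0403), a call lost without any 1 of 7 arrays: FVB/N MPTP prefrontal replicate 2, TgR MPTP prefrontal replicate 1, both TgS MPTP prefrontal replicates, FVB/N MPTP caudate-putamen replicate 1 or either TgS MPTP caudate-putamen replicate. The dimmer Aldoc probe set was higher in the prefrontal cortex by 0.76 ± 0.09, 0.54 ± 0.09 and 0.59 ± 0.10, while the bright one differed by at most 0.08, so the 2 probe sets of this gene disagree.

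Other astrocyte genes went both ways between regions, in a comparison where 42.1% of all transcripts were called. Of 37 other astrocyte markers, 6 were higher and 17 lower in naive prefrontal replicates 3 and 4 than in the caudate-putamen, among them Id4 (-1.23), Ntsr2 (-0.62), Slc14a1 (-0.83) and Chrdl1 (0.76). Their median difference was -0.16, against -0.01 over all transcripts. Of 12 measured genes of the perivascular endfoot complex, 2 were higher and 6 lower, including the potassium channel gene Kcnj10 (-0.43) and Dag1 (-0.32), which encodes dystroglycan.

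Strain differences among the 8 genes were called mainly in naive prefrontal cortex. It had 4 arrays per strain, against 1 or 2 in the other groups, and the part of that number in the calls was not tested. TgS had less Gfap, Slc1a3, Vcam1, Aqp4 and Acsbg1 signal than TgR, 5 of 8 members, where 18.6% of all transcripts were called and 11.6% were lower. Without replicates 1 and 2 the count was 4 of 8 (4.79% of all called), and without replicates 3 and 4 it was 5 of 8 (34.2%). Against FVB/N, TgS was lower in Gfap, Slc1a3 and Vcam1, 3 of 8, where 10.9% of all were called and 6.52% were lower. TgR was higher than FVB/N in Aqp4 alone, 1 of 8, where 2.26% of all were called and 1.3% were higher. The 3′ actin signal of naive replicates 1 and 2 also differed by strain. It read 13.41 and 13.51 in TgS, 12.40 and 12.46 in FVB/N and 11.91 and 11.53 in TgR. In replicates 3 and 4 of the 3 strains it ranged from 12.33 to 12.48. The part of this difference in the strain results was not tested.

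**Figure D4:**
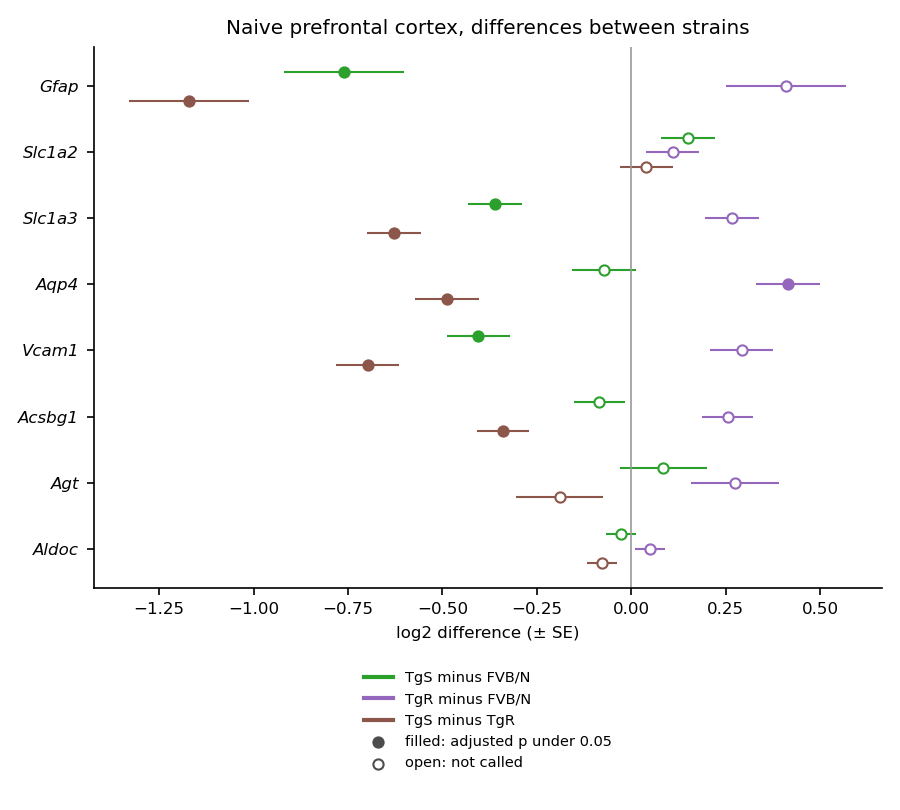
Log2 difference between strains in naive prefrontal cortex (x axis, ± SE) of each astrocyte gene (y axis), 4 arrays per strain, with filled points where adjusted p was under 0.05. Gfap was -1.17 in TgS against TgR and -0.76 in TgS against FVB/N.

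Gfap was 2.25-fold lower in TgS than in TgR (log2 -1.17 ± 0.16, adjusted p = 0.000175). The 4 TgS arrays (8.14 to 9.68) and the 4 TgR arrays (9.35 to 10.89) overlapped only across the 2 naive sets. The difference was -1.21 without replicates 1 and 2 (4.79% of all transcripts called) and -1.13 without replicates 3 and 4 (34.2%), both called. Against FVB/N it was -0.76 ± 0.16 (adjusted p = 0.00745), but -1.17 ± 0.18 without replicates 1 and 2 (adjusted p = 0.00112) and -0.36 ± 0.17 without replicates 3 and 4, not called (adjusted p = 0.146). In these 2 smaller fits 3.73% and 23.4% of all transcripts were called for TgS against FVB/N.

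Vcam1 was lower in TgS than in TgR by 0.70 ± 0.08 (adjusted p = 4.74e-05) and lower than in FVB/N by 0.41 ± 0.08 (adjusted p = 0.00671), and each call held within either naive set. Without replicates 1 and 2, 4.79% of all transcripts were called against TgR and 3.73% against FVB/N. Without replicates 3 and 4 these shares were 34.2% and 23.4%. Naive TgS arrays read 8.19, 8.09, 7.97 and 8.05, below all 4 FVB/N arrays (8.64, 8.37, 8.58 and 8.33) and all 4 TgR arrays (8.92, 9.02, 8.56 and 8.59). The other 2 Vcam1 probe sets differed by -0.23 ± 0.11 and -0.09 ± 0.06 between TgS and TgR, not called, and 1 of them was not called between TgS and FVB/N (-0.09 ± 0.06).

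Slc1a3 read 11.04, 11.01, 11.38 and 11.51 in naive TgS prefrontal cortex and 11.79, 11.87, 11.83 and 11.96 in TgR, groups that did not overlap (-0.63 ± 0.07, adjusted p = 2.83e-05). The 4 FVB/N arrays read 11.55, 11.53, 11.76 and 11.54. TgS was lower than FVB/N by 0.36 ± 0.07 (adjusted p = 0.00553), but the difference of -0.21 without replicates 1 and 2 was not called (adjusted p = 0.186). The other 2 Slc1a3 probe sets went the other way between TgS and TgR (0.50 ± 0.23 and 0.75 ± 0.36, not called) and between TgS and FVB/N (0.32 ± 0.23 and 0.21 ± 0.36, not called). The lowest of their readings, 7.25, was on TgR naive replicate 2, the array with the lowest 5′ to 3′ actin ratio.

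Aqp4 was lower in TgS than in TgR by 0.49 ± 0.08 (adjusted p = 0.0015) and Acsbg1 by 0.34 ± 0.07 (adjusted p = 0.00353). The Aqp4 call held without replicates 1 and 2 (4.79% of all transcripts called) and without replicates 3 and 4 (34.2%). That of Acsbg1 was lost without replicates 1 and 2 (-0.27, adjusted p = 0.121). The second Aqp4 probe set again disagreed (1.11 ± 0.42, not called). TgR exceeded FVB/N in Aqp4 by 0.42 ± 0.08 (adjusted p = 0.0294), a call lost without naive replicate 1 or 2 of either strain and, at 0.26, without all of replicates 1 and 2. The second Aqp4 probe set gave -0.035 ± 0.42 there. The count of members called for TgR against FVB/N was 5 without FVB/N naive replicate 3, 4 without TgR naive replicate 3 and 2 without TgR naive replicate 4. The share of all transcripts called in these fits is not given, so the counts cannot be read as a result about the members. That share was 0.0486% without replicates 1 and 2 and 32% without replicates 3 and 4.

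Markers of other cells also differed between naive TgS and TgR prefrontal cortex, where 18.6% of all transcripts were called. Of 37 other astrocyte markers, 1 was higher and 14 lower in TgS than in TgR, with Plpp3 (-0.41), Fgfr3 (-0.39), Mlc1 (-0.44) and Clu (-0.28) called. Their median was -0.22, against -0.04 over all transcripts. Of 17 microglia markers, 1 was higher and 10 were lower, and of 21 endothelial and mural markers 0 were higher and 4 lower, a share near that of all transcripts. The part of these cells in the strain differences was not tested.

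After MPTP no member was called between strains in the prefrontal cortex (0.362% of all transcripts called for TgS against FVB/N, 0.212% for TgR against FVB/N and 1.14% for TgS against TgR). Gfap differed there by -0.52 ± 0.23 between TgS and TgR (95% interval -0.99 to -0.04, adjusted p = 0.416). The other Gfap probe set went the other way, with a mean of 9.585 in TgS and 9.52 in TgR, so no direction holds for the gene there. In the caudate-putamen, 0 of 8 members were called between naive TgR and FVB/N (0% of all) or between naive TgS and TgR (0.773%), and after MPTP 0 were called between TgS and FVB/N (0.694%). Vcam1 was lower in TgS than in the TgR array after MPTP (-0.62 ± 0.14, adjusted p = 0.0428; 1.07% of all), a call lost without either TgS array, and its other 2 probe sets gave -0.45 ± 0.18 and -0.17 ± 0.11, not called. The prefrontal tests of a strain difference in the MPTP response called 0 members for TgS (0% of all transcripts) and 0 for TgR (0.00442%).

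The responses of the 2 regions to MPTP differed for 3 members when naive prefrontal replicates 1 and 2 were used (43.3% of all transcripts called): Gfap by 0.63 ± 0.19, Slc1a2 by 0.45 ± 0.08 and Aldoc by -0.15 ± 0.05, each as caudate-putamen minus prefrontal cortex. With replicates 3 and 4 (18% of all) the values were -0.49 ± 0.19, 0.24 ± 0.08 and -0.06 ± 0.05, and none was called. Other probe sets were called in these tests: with replicates 1 and 2 both dimmer ones of Vcam1 (-0.68 ± 0.13 and -0.27 ± 0.08, against 0.045 for the brightest) and 1 of Slc1a3 (-1.46 ± 0.44), and with replicates 3 and 4 that of Gfap (-0.57 ± 0.16). The dimmer Aldoc probe set was not called (-0.05 ± 0.14).

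Of 32 further genes of reactive astrocytes, 5 were higher and 0 lower after MPTP in the caudate-putamen, where 1.43% of all transcripts were called. Lcn2, which encodes the secreted protein lipocalin-2, led with 3.46, followed by Ptgs2 (1.02), Cd14 (0.99) and the oncostatin M receptor gene Osmr (0.86). Lcn2 read 4.65 to 5.11 on the 6 naive arrays and 9.28, 9.23, 8.75 and 9.81 on the FVB/N and TgS MPTP arrays, with 6.35 on the TgR array. Of the 37 other astrocyte markers, 2 rose, the protease gene Htra1 (0.28) and Cbs (0.33), and 0 fell, and of 9 genes of glutamate and potassium clearance 0 were called. In the same comparison 10 of 17 microglia markers were higher and 0 lower, with the complement gene C1qc at 1.0. The part of microglia in the reactive list was not tested.

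The prefrontal counts stand against 38.8% of all transcripts called for replicates 3 and 4 and 60.9% for replicates 1 and 2. In the prefrontal cortex, 16 of the 32 reactive genes were higher and 2 lower after MPTP against replicates 3 and 4, and 10 were higher and 12 lower against replicates 1 and 2. Lcn2 was 3.74 higher against the former, and the other astrocyte markers split 9 higher and 3 lower, led by Mt3 (0.88), Mertk (0.46) and Ntsr2 (0.41). Against replicates 1 and 2 they split 11 and 9. Of 20 glycolysis genes, 9 were higher and 2 lower against replicates 3 and 4, and 2 higher and 4 lower against replicates 1 and 2. Of 18 genes of fatty acid activation and transport, the counts were 9 and 4, then 3 and 5.

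The 8 genes did not move as a block. Over the 29 arrays, after the mean of each region was removed, Aqp4 and Vcam1 were the pair with the highest correlation (Pearson r = 0.83) and Slc1a3 and Acsbg1 followed (0.77). Aqp4 and Aldoc ran against each other (-0.54). Within the 11 caudate-putamen arrays Slc1a2 and Aldoc had r = 0.86, Slc1a2 and Aqp4 -0.88, and Aqp4 and Vcam1 0.88. These describe arrays that share groups and are not tests.

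**Figure D5:**
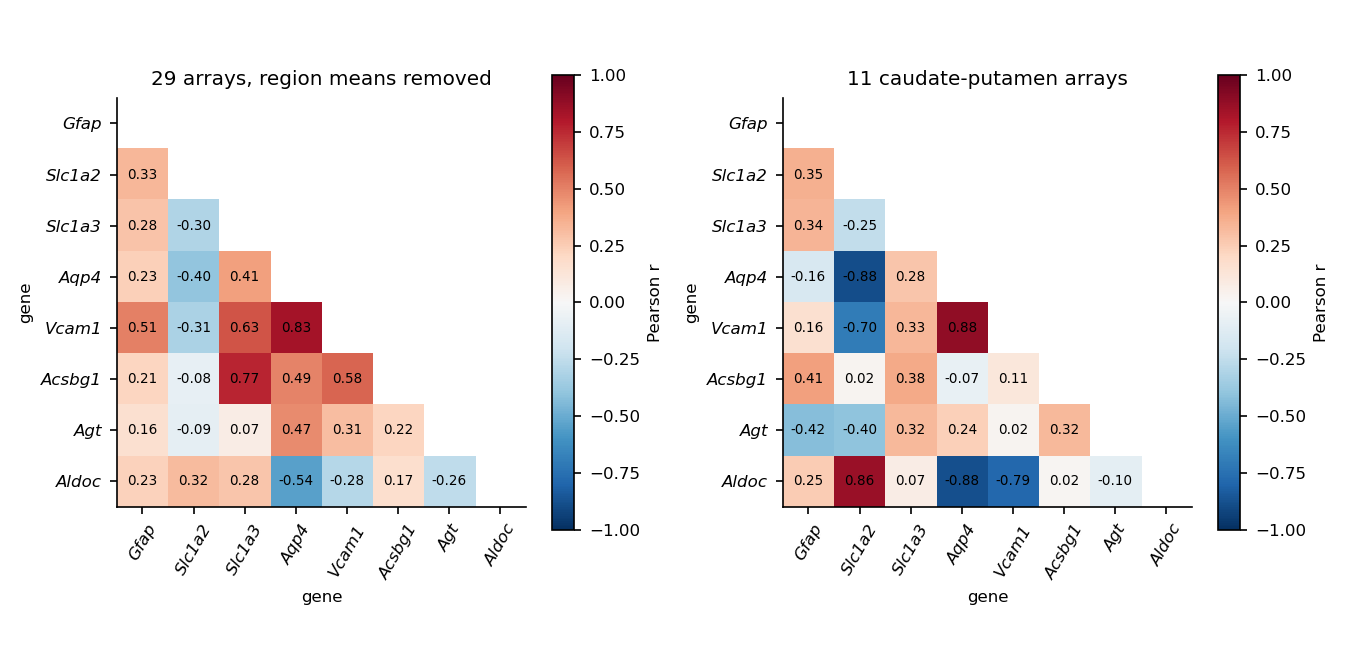
Pearson r between each pair of the 8 astrocyte genes (both axes) over the 29 arrays with region means removed (left) and over the 11 caudate-putamen arrays (right), in colour from -1 to 1. In the caudate-putamen Aqp4 and Vcam1 rise and fall together (0.88) and both run against Slc1a2 (-0.88 and -0.70).

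The genes nearest to each member over the 29 arrays, by the same measure, were mostly not astrocyte markers of the lists. Gfap was nearest to Tmem179b (0.912), Pdlim4 (0.894) and Pold2 (0.889). Slc1a2 was nearest to Casq1 (0.839), Pdk4 (0.813) and Csf3r (0.789). Slc1a3 was nearest to Efcab7 (0.895), Cst3 (0.856) and L3hypdh (0.838), and in the 11 caudate-putamen arrays these fell to 0.372, 0.464 and 0.449. Aqp4 was nearest to Idh1 (0.914), Serpinb1a (0.871) and Il33 (0.865). Vcam1 was nearest to Klhl5 (0.864), Tst (0.85) and Gosr2 (0.848), and Acsbg1 to Slc1a3 (0.765), Ptgr2 (0.734) and Rgcc (0.71), whose r within the caudate-putamen arrays was 0.379, 0.424 and 0.336. Aldoc was nearest to Lrg1 (0.893), Ndrg2 (0.877), an astrocyte marker of the list, and Inpp5k (0.874). The neighbours of the members other than Slc1a3 and Acsbg1 had r from 0.61 to 0.921 in the caudate-putamen arrays. These 11 arrays are among the 29 on which the neighbours were picked, so the values are partly set by that choice.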

How the data were processed

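Total RNA was hybridised to Affymetrix expression arrays. The authors deposited log2 signals of probe sets; the submitters' processing notes name RMA, Affymetrix Expression Console and Affymetrix Power Tools, without versions. No further normalization was applied here. Of 22690 probe sets, 64 controls were left out; 20380 carry 1 gene symbol, 691 several and 1555 none, in an annotation of the platform that may be old. Each comparison is a contrast of the same linear model of the 29 arrays (limma 3.58.1 under R 4.3.3), which had 12 group means and a term for naive prefrontal replicates 3 and 4 (16 residual degrees of freedom, two-sided moderated tests, Benjamini-Hochberg over 22626 transcripts per comparison). The group with 1 array is assumed to vary like the rest, and the number of arrays limits the precision. On simulated data for the caudate-putamen MPTP comparison (22626 transcripts), 96% of log2 changes of 1 and 81% of changes of 0.5 were recovered.

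The 8 members, the further gene lists, the naming rule and the alternatives were chosen with earlier results of these data known. The rule named all 8 members in every comparison, up to 4 genes with the smallest p of each further list, and the 3 genes most correlated with each member. Lcn2 values and the reactive genes are from that list; Gal and Slc17a6 are from the correlation rule. Replicate numbers pair no samples in the labels. Alternatives were no set term, a replicate block, each region alone, either naive set left out, quantile normalization, transcripts under the 0.25 quantile left out, a trended robust variance, the mean of a gene's probe sets, and each array left out. Motif searches used RefSeq promoter windows, and a missing member window was not used here.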

Additional observations from a re-analysis of the deposited data

Results flagged for a closer look

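Slc1a3 in FVB/N naive prefrontal cortex had 1 array, replicate 3, apart from the other 3: its gap to the nearest array was 0.913 of the range of the group. The 24 checks were of 8 genes in the naive prefrontal groups of 3 strains, with 4 arrays each. They share arrays and are not independent. Chance alone sets about 1 in 20 apart among 4 like arrays. Each group mixes the 2 naive sets, so that rate need not hold here. The Agt response to MPTP in the caudate-putamen differed between strains by -1.65 on the log2 scale for TgS against FVB/N and by -1.62 for TgR against FVB/N, both called in limma. The MPTP response of the caudate-putamen differed from that of the prefrontal cortex, with naive prefrontal replicates 1 and 2, by 0.63 for Gfap, 0.45 for Slc1a2 and -0.15 for Aldoc. With naive replicates 3 and 4 no member was called in that test.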

How the results depend on the processing

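Counts below are of the 8 members called by limma. For fits to fewer arrays the share of all transcripts called follows in parentheses. For the other settings it is not given, so their counts cannot be read as a result about the members. For MPTP in the caudate-putamen the count of 2 became 5 with the region alone (2.71%), 5 without naive prefrontal replicates 1 and 2 (4.54%), and 4 without replicates 3 and 4 (2.73%). In FVB/N alone 0 became 1 with the region alone (0.248%), without replicates 1 and 2 (0.676%) and with the mean of probe sets. In TgR alone 0 became 1 with the region alone (0.155%) and without replicates 1 and 2 (0.495%). Without the set term, the counts were 4 between naive regions (replicates 1 and 2), 1 for MPTP in TgS caudate-putamen, 3 for prefrontal MPTP (replicates 3 and 4), 0 for TgR against FVB/N in naive prefrontal cortex, in MPTP caudate-putamen and in the caudate-putamen response, 0 for TgS against TgR in MPTP caudate-putamen, and 1 for the response of caudate-putamen against prefrontal cortex with either naive set. The naive prefrontal count of TgR against FVB/N was also 0 with the replicate block, with the region alone (0.0442%) and without replicates 1 and 2 (0.0486%). It was 5 without replicates 3 and 4 (32%), and 3 with quantile normalization, without transcripts under the 0.25 quantile or with the trended robust variance. TgS against TgR gave 1 in naive caudate-putamen with the region alone (1.51%) and without replicates 1 and 2 (2.93%). In MPTP caudate-putamen it gave 0 with the replicate block. It gave 2 there with the region alone (2.44%), without replicates 1 and 2 (4.24%) or without replicates 3 and 4 (2.5%). TgS against FVB/N in MPTP caudate-putamen gave 2 with the region alone (2.23%) and 3 without replicates 1 and 2 (4.04%). It gave 1 without replicates 3 and 4 (2.21%) and 1 with the mean of probe sets. The prefrontal tests of strain responses each gave 1 without replicates 3 and 4 (10.9% for TgS and 10.4% for TgR). The response of caudate-putamen against prefrontal cortex with replicates 3 and 4 gave 3 without replicates 1 and 2 (32.5%), 2 with quantile normalization and 1 with the mean of probe sets. The mean of probe sets gave 3 for prefrontal MPTP (replicates 3 and 4) and 3 for TgS against TgR in naive prefrontal cortex.

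With the mean of probe sets the sign turned for Aqp4 (-0.06) and Aldoc (0.23) between naive regions with replicates 1 and 2, for Vcam1 in prefrontal MPTP against replicates 1 and 2 (0.065), for Slc1a3 in TgS against FVB/N (0.057) and TgR (0.21) and Aqp4 in TgS against TgR (0.31) in naive prefrontal cortex, and for Vcam1 between the naive sets (-0.13). The cause was not tested.

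Leaving out single arrays moved the counts from 0 to 3 for MPTP in TgS caudate-putamen, 3 to 6 for prefrontal MPTP (replicates 3 and 4), 0 to 5 for TgR against FVB/N in naive prefrontal cortex, 0 to 1 for TgS against FVB/N in naive and TgR against FVB/N in MPTP caudate-putamen, 0 to 0 for TgS against TgR there, 0 to 1 for the TgR response in the caudate-putamen, and 0 to 1 for the response of caudate-putamen against prefrontal cortex (replicates 3 and 4). Of single gene values, 374 kept direction and call under the planned settings, 40 lost and 5 gained a call, and 7 turned; with arrays left out 633 kept both and 69 lost the call. Residuals of arrays with the same number in different strains correlated between -0.67 and 0.203. The fit itself sets part of these values. Residuals in groups of 2 arrays mirror each other, and the set term shared by the strains lowers the naive prefrontal values. They therefore do not decide whether the numbers pair arrays. The replicate block changed no other count by over 1.5 times. Comparisons that need the 1 TgR MPTP caudate-putamen array were not run without it. The share of all transcripts called is not given for fits without single arrays, so their counts cannot be read as a result about the members. Background signal is unknown, which limits what dim probe sets show.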
